A study of Homo sapiens with 3 samples.

Results

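The 37 genes described here encode parts of the primary cilium: 14 subunits of the intraflagellar transport (IFT) trains, 6 subunits of the BBSome with 2 of its assembly factors, 4 membrane GTPases and trafficking proteins, 6 transition zone proteins, 2 proteins of the EvC zone and 3 of the basal body. They were taken from a fixed list by their gene symbols, with older names accepted, out of 20043 genes with a probe on the array. Every member had a probe, and 25 had 1 probe and 12 had several, which gave 58 probes in all. The RNA was that of HCC-LM3 cells, an epithelial, adherent line of human liver cancer that the labels type as adenocarcinoma. The cells received cyclopamine at 20 μM, GANT61 at 20 μM or vehicle DMSO, each for 48 h, and 1 Illumina BeadChip array was hybridized per condition. The same DMSO array serves both treated arrays, all cells are of 1 cell line, and no genotype differs between the conditions. With 1 array per condition there was no replicate check, no test was made and no p-value is given, so that every difference below describes 3 arrays.

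A primary cilium is a single, non-motile projection of the cell surface built on a centriole called the basal body. IFT-B complexes with kinesin carry cargo to the tip, IFT-A complexes with dynein bring it back, and the BBSome links membrane proteins to these trains, while the transition zone at the base acts as a gate. Hedgehog (Hh) signaling in vertebrates runs through this organelle: SMO gathers in its membrane when a ligand is bound, and the Gli factors are processed on their way through it. Cyclopamine binds SMO, and GANT61 acts downstream, on the Gli factors. Dividing cells take the cilium down before mitosis, and a transcript level does not say whether a cell carries a cilium.

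The values are signal intensities that the authors normalized between the arrays, on a linear scale, and differences are given on the log2 scale. The background limit was set at 63.75, or 1.5 times the most common intensity on the arrays (42.5), and the brightest probe stood for its gene. This limit was passed on some array by 10441 genes. Where a gene had several probes, the spread between a pair of them corresponded to an SD of 0.29 to 0.49 for differences from DMSO and 0.18 to 0.24 for those between the treated arrays, which covers probes and not cultures. The median of all genes above background moved by 0.033 with cyclopamine and 0.018 with GANT61. Of 12 listed reference genes 10 had a named probe, and their median lay at −0.67 and −0.72, so that scaling on them would move every value against DMSO up by these amounts. Of the marker lists, 3 of 5 epithelial genes (KRT8, KRT18 and EPCAM) were above background. The 5 genes summed to 2109 on the DMSO array, but to 993 and 1009 after cyclopamine and GANT61. KRT8 went from 1423 to 335 and 286 (−2.09 and −2.32). KRT18 had 183, 181 and 239 in the same order, and EPCAM 401, 387 and 403. Of 9 hepatocyte and liver cancer genes only ALB was above background, at 69.6 to 80.0, while AFP and APOA1 were not. No endothelial marker of 4 was above background. The fibroblast list had 1 of 5 (COL1A1) and a summed intensity of 390, 321 and 248 with DMSO, cyclopamine and GANT61. The immune list had 1 of 5 above background, CD68, at 238, 509 and 1032, with a summed intensity of 419, 714 and 1217, whereas PTPRC, the pan-leukocyte marker, was not above background. The part of these markers in the results on cilium genes was not tested.

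Cilium genes were dim. Of the 37 members, 27 were above background on all 3 arrays, 4 on 1 or 2 arrays and 6 on none. The 6 without a measurable level were IFT74, BBS5, RPGRIP1L, EVC, EVC2 and TTBK2. Over the 31 others the median intensity on the DMSO array was 139, compared with 274 over all genes above background, and 11 of the 31 stayed below 2 times the background limit on every array. The brightest member was BBS2, at 1034 with DMSO. Since a member above background on 1 array only had to differ, the counts below describe the 31 genes and not the whole list.

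**Figure D1:**
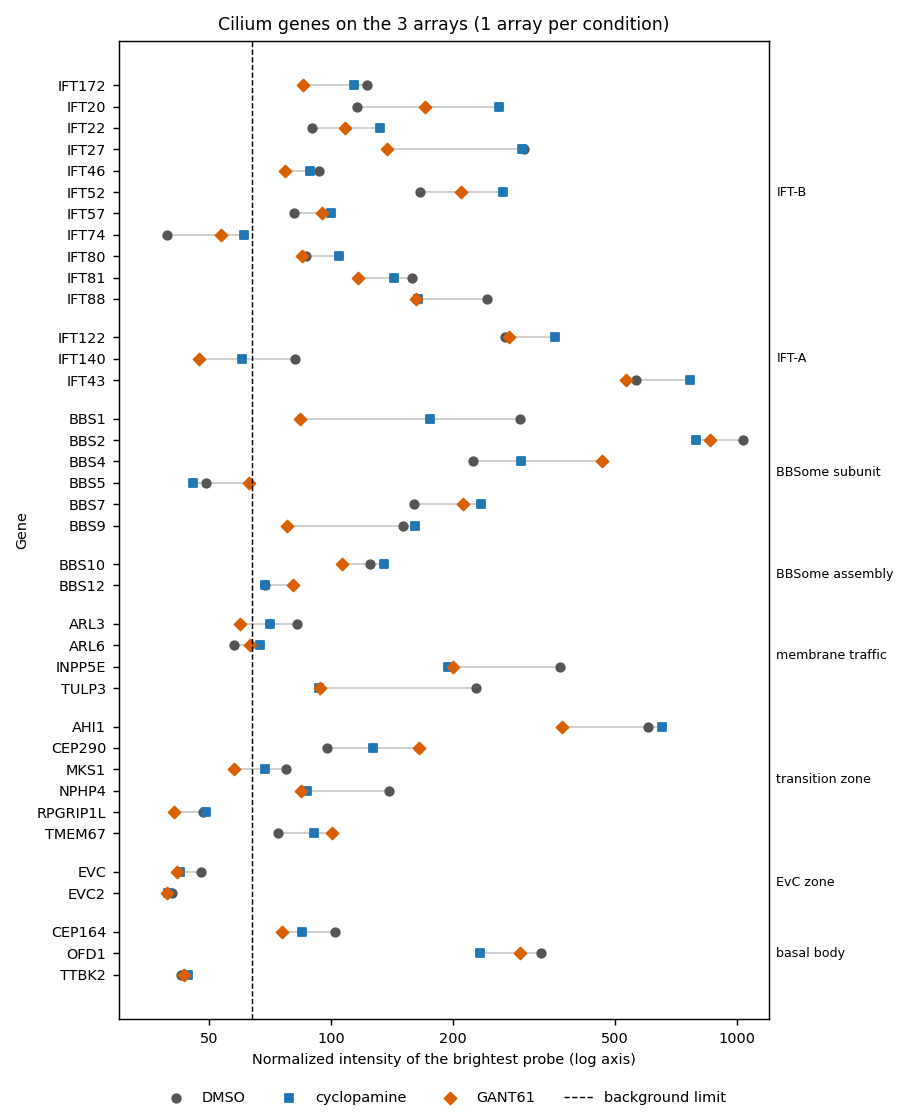
Normalized intensity of the brightest probe (log axis) of 37 cilium genes, grouped by role, on the DMSO, cyclopamine and GANT61 arrays, with 1 array per condition and no error bars. The dashed line is the background limit of 63.75, and 6 genes lie to its left on all 3 arrays.

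Only a few members were far from DMSO. With cyclopamine 1 of 31 (3.23%) was at least 2-fold lower, TULP3, compared with 6.31% of all genes, and 1 was at least 2-fold higher, IFT20, compared with 4.70%. With GANT61 3 (9.68%) were lower, IFT27, BBS1 and TULP3, compared with 9.64% of all genes, and 1 was higher, BBS4, compared with 8.16%. TULP3 alone was 2-fold lower with both compounds (background 4.65%), and no member was 2-fold higher with both (background 2.45%). These shares were near or below those of all genes. At 1.5-fold, 4 members were lower with cyclopamine (background 16.6%) and 8 with GANT61 (background 20.8%), IFT140 among the latter by a level under the limit, and BBS1, NPHP4, TULP3 and INPP5E were lower with both (12.9%, background 12.3%), while 0 were 1.5-fold higher with both (background 9.74%). Members 1.5-fold higher were IFT20 and IFT52 with cyclopamine (background 15.7%) and BBS4 and CEP290 with GANT61 (background 21.0%). Over the 31 genes, the median difference stood at 0.0029 for cyclopamine and −0.27 for GANT61, or at 0.68 and 0.45 when scaled on the reference genes.

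**Figure D2:**
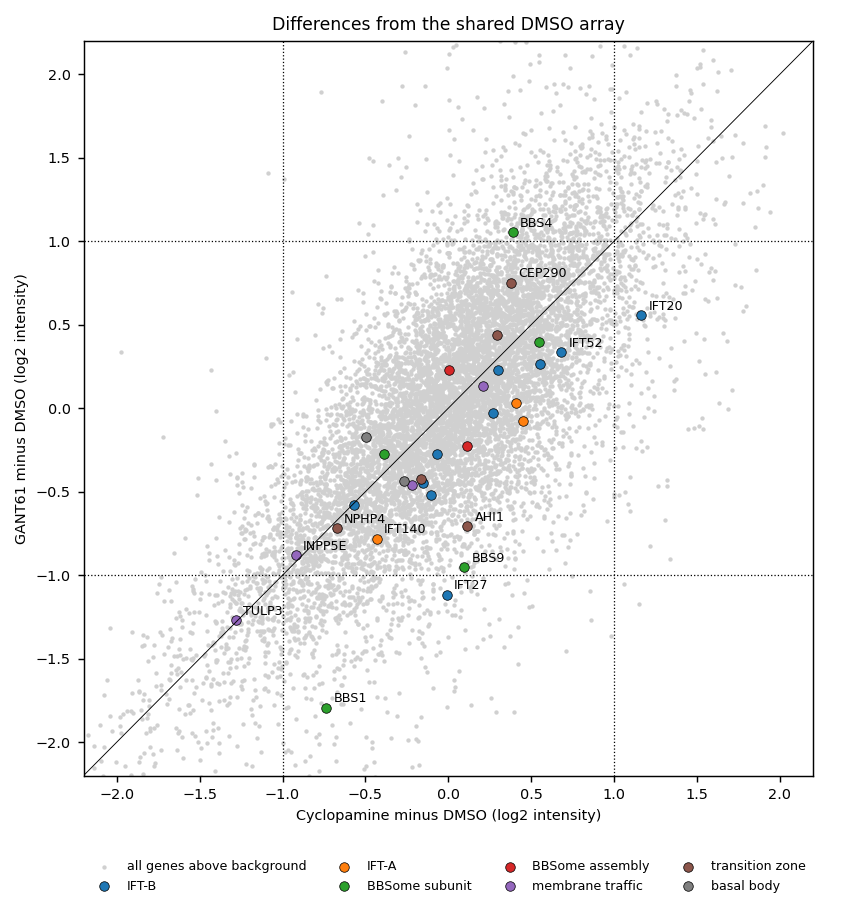
Log2 difference from DMSO with cyclopamine (x axis) and with GANT61 (y axis) for the 31 cilium genes above background, colored by role, over all 10441 genes above background in gray, of which 130 lie outside the axes. Dotted lines mark 2-fold and the diagonal marks equal differences, and both axes share the DMSO array. TULP3, INPP5E and NPHP4 lie near the diagonal, whereas BBS1, IFT27, BBS9 and AHI1 lie below it and BBS4 above it.

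Among the IFT-B genes, IFT20 was the member highest with cyclopamine relative to DMSO. IFT20, an IFT-B subunit that also sits at the Golgi, gave 116 on the DMSO array, 259 with cyclopamine and 170 with GANT61. It was highest on the cyclopamine array and lowest on the DMSO array, with log2 differences of 1.16 and 0.56 (2.24-fold and 1.47-fold). IFT52, a core subunit, ran the same way at 166, 265 and 209, differences of 0.68 and 0.34, and its other probe gave 160, 226 and 163. IFT27 is a Rab-like GTPase of the train that is needed for the exit of the BBSome from the cilium. It had 298 with DMSO, 296 with cyclopamine and 137 with GANT61. The level with cyclopamine was thus that with DMSO up to a log2 difference of −0.0088, and only the GANT61 array was low, by −1.12. Scaled on the reference genes, IFT27 would stand at 0.67 and −0.40. The other IFT-B genes above background (IFT22, IFT46, IFT57, IFT80, IFT81, IFT88 and IFT172) were within 1.5-fold of DMSO by their brightest probes. IFT172, a large peripheral subunit, went from 122 to 114 and 85.4, a GANT61 difference of −0.52. IFT81, which pairs with IFT74, had 159, 143 and 117, and its other probe 130, 117 and 79.2, lowest with GANT61 by both. IFT22, a small GTPase, went from 89.9 to 132 and 108. IFT46, IFT57 and IFT80 stayed near the limit: IFT46 had 93.2, 88.7 and 77.2, IFT57 had 81.1, 99.8 and 94.9, and IFT80 had 86.6, 104 and 84.8. IFT74, which binds tubulin together with IFT81, had 39.5, 61.1 and 53.5 and was not above background on any array.

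In IFT-A, which drives return transport and brings membrane proteins in, IFT43 was the brightest, at 563, 767 and 532 in the same order, a log2 step of −0.53 between the treated arrays. IFT140 had 81.3 with DMSO and was not above background with either compound, at 60.3 and 47.3. Only a bound can be given for it, at least 1.28-fold lower on each treated array, set against the background limit. IFT122 was split between its probes, as given further on.

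BBSome genes went in opposite directions. BBS1, the subunit that meets the GTPase ARL6 at the membrane, had 291 with DMSO, 175 with cyclopamine and 84.1 with GANT61. Each step was downward, with differences of −0.74 and −1.79, and the GANT61 array was 3.47-fold below DMSO and 2.08-fold below cyclopamine. BBS4, which also binds the centriolar satellite protein PCM1, ran upward over the same arrays, at 224, 293 and 465 (0.39 and 1.05). BBS9 had 151 with DMSO, 161 with cyclopamine and 77.8 with GANT61, so that only the GANT61 array was low, by −0.95. Scaled on the reference genes, BBS1 would stand at −0.062 and −1.08, BBS9 at 0.77 and −0.24 and BBS4 at 1.06 and 1.77. On that scale BBS1 is low with GANT61 alone. BBS2 and BBS7, of the core of the complex, were within 1.5-fold of DMSO by their brightest probes, but the other BBS2 probe was not, at 0.80 with GANT61. BBS5 had 49.1, 45.7 and 62.9 and was not above background. BBS10 and BBS12, chaperonin-like proteins that assist assembly of the complex, had 125, 135 and 107 and 68.6, 68.7 and 80.5. The differences of BBS1 and BBS4 exceed the probe-pair SD with GANT61 of 0.44 and 0.48, and each gene has 1 probe. Probes of 1 member could differ by more: over 8 members with several probes above background, the GANT61 gap had a median of 0.65 and reached 1.72. The BBS4 difference is smaller than that largest gap.

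TULP3 and INPP5E were lower on both treated arrays, each by nearly equal amounts. TULP3, a phosphoinositide-binding adaptor that hands membrane receptors to IFT-A, had 227 with DMSO, 93.4 with cyclopamine and 94.1 with GANT61. Both treated arrays were low and nearly equal, 2.43-fold and 2.41-fold below DMSO. INPP5E, a phosphatase that keeps the phosphoinositide bound by TULP3 low in the ciliary membrane, had 367, 194 and 199, log2 differences of −0.92 and −0.88. Scaled on the reference genes, TULP3 would keep −0.61 and −0.55 and INPP5E −0.25 and −0.16. Because 1 DMSO array underlies both comparisons, a low level with both compounds and a high level on that array cannot be told apart. ARL3, the GTPase that unloads lipid-modified cargo such as INPP5E inside the cilium, had 82.3, 70.6 and 59.8, the last of these under the limit and so at least 1.29-fold below DMSO. ARL6, which recruits the BBSome, had 57.6, 66.6 and 63.3 and passed the limit with cyclopamine alone.

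Of the transition zone genes, NPHP4 was lower on both treated arrays, AHI1 on the GANT61 array only, and CEP290 ran upward. NPHP4 had 139 with DMSO, and 87.0 and 84.3 with the compounds (−0.67 and −0.72), and its other probe gave 120, 86.4 and 81.0. Scaled on the reference genes, NPHP4 would not differ from DMSO, at 0.0010 and −0.0020. AHI1 (jouberin) had 604, 654 and 370, log2 differences of 0.11 and −0.71, the GANT61 value turning to 0.0096 on that scale. CEP290, a large protein that tethers the gate to the microtubules, had 97.8, 127 and 165 (0.38 and 0.75). TMEM67 (meckelin), a membrane receptor of the gate, had 74.2, 91.0 and 100.3, and its other probe 57.6, 79.4 and 90.3. MKS1 went from 77.3 to 68.8 and, with GANT61, to 57.5, below the limit. RPGRIP1L, a scaffold of the gate, had 48.4, 49.3 and 41.1 and was not above background. EVC and EVC2, which pass the Hh signal on from SMO at the ciliary base, were not above it either, with 39.4 to 47.8 on the 3 arrays.

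At the basal body, OFD1, a protein of centrioles and their satellites, had 329, 233 and 291, lowest with cyclopamine. CEP164, which forms the distal appendages by which the centriole docks, had 102, 84.9 and 75.6. Neither passed 1.5-fold. TTBK2, the kinase that CEP164 recruits to start ciliogenesis, had 42.6, 44.4 and 43.4, which is the level of the array background.

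A comparison of the treated arrays does not use the DMSO array. Here 3 members were at least 2-fold lower with GANT61 than with cyclopamine (background 3.40%), IFT27 at −1.11, BBS1 at −1.06 and BBS9 at −1.05, and none was 2-fold higher (background 2.31%). With the mean of all probes BBS9 stood at −0.56, its other probe being under the limit on all 3 arrays, and with normexp BBS1 stood at −0.91 and BBS9 at −0.90, which left IFT27. At 1.5-fold, IFT20 and AHI1 joined the lower genes (5 of 31, background 11.0%), and BBS4 was the 1 member higher, by 0.67 (background 10.3%). The IFT genes, a split chosen after their values were seen, stood on one side. All 12 that were above background on both treated arrays were lower with GANT61, compared with 48.1% of the 9361 genes above background on both. Their differences ran from −1.11 (IFT27) to −0.011 (IFT88) with a median of −0.32, where the median of all such genes was 0.019. IFT88 lay on the other side of 0 by its dimmer probes. The count was 11 of 12 with the mean of all probes, with scaling on the reference genes or with the median of all genes taken off. Of the 15 other members, 7 were lower with GANT61, with a median of 0.011. Several IFT differences are no larger than the probe-pair SD of 0.18 to 0.24 (IFT46 at −0.20, IFT57 at −0.073 and IFT88), and the 3 arrays cannot show whether the pattern would recur in other cultures. The compounds were used at the same dose and time, and they are structurally unrelated, cyclopamine being a steroidal alkaloid.

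**Figure D3:**
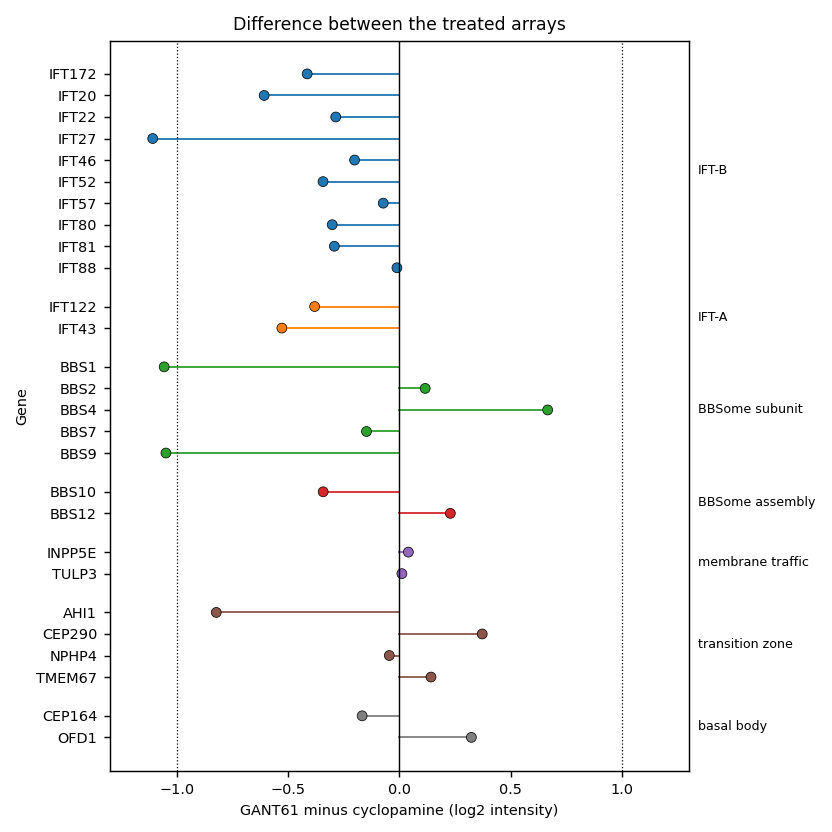
Log2 intensity with GANT61 minus that with cyclopamine for the 27 cilium genes above background on both treated arrays, grouped by role, 1 array per compound. Dotted lines mark 2-fold, and the 12 IFT genes at the top all lie at or left of 0, from −1.11 to −0.011, while the other 15 lie on both sides.

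Several probes of a gene were above background for 8 members, and they served as a check on single spots. Their differences had the same sign in 5 of 8 genes with cyclopamine, in 4 of 8 with GANT61 and in 6 of 8 between the treated arrays, with a median gap of 0.34, 0.65 and 0.17. IFT52, IFT81, NPHP4 and TMEM67 had probes of like direction in all 3 comparisons. IFT122 did not: its brightest probe had 269 with DMSO, 357 with cyclopamine and 274 with GANT61, whereas a second, nearly as bright with DMSO, had 241, 128 and 92.6. The second probe was thus lower by −0.91 and −1.38 where the first was at 0.41 and 0.028, although both put GANT61 below cyclopamine, by −0.38 and −0.47. IFT88, the Polaris protein of the IFT-B core, had 243, 164 and 162 by its brightest probe. The other probes of IFT88 above background went up, from 86.5 to 97.5 and 105.5 and from 47.9, below the limit, to 63.8 and 105.4. BBS2 had 1034, 791 and 857 by one probe and 431, 595 and 753 by the other. BBS7 had 160, 234 and 211 by its brightest probe, 168, 175 and 113 by the next and 63.1, 84.2 and 84.8 by the dimmest, so that only the cyclopamine value was above DMSO by all of them. No direction against DMSO is therefore given for IFT122, IFT88 or BBS2. In the annotation the probes of IFT122 and BBS2 above background are assigned to 1 transcript record each and those of IFT88 to 2.

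**Figure D4:**
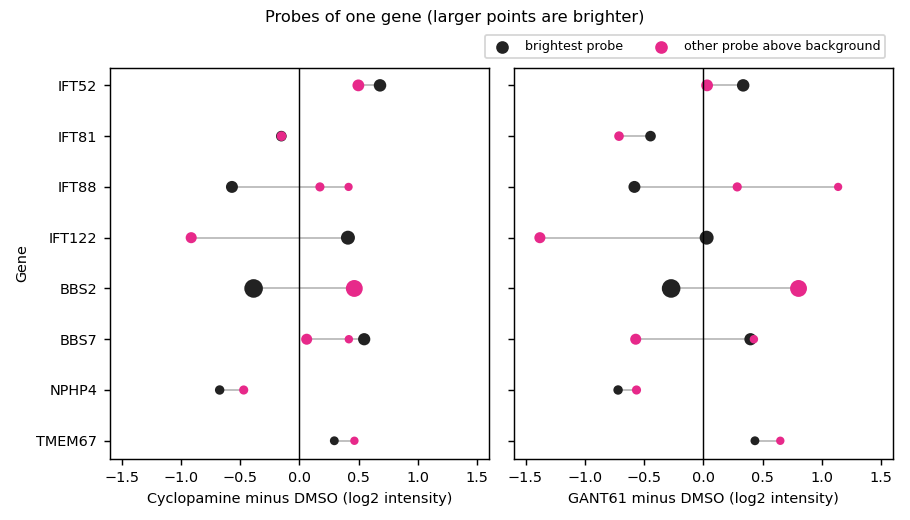
Log2 difference from DMSO with cyclopamine (left) and GANT61 (right) for each probe above background of the 8 cilium genes with several such probes. Black points are the brightest probe, pink points the others, and larger points are brighter. Probes of IFT88, IFT122 and BBS2 lie on both sides of 0 in both panels.

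The start regions of the members were read to see what the genes share in sequence. RefSeq promoters (GRCh38.p14, from 250 bases before to 50 after the gene start) matched 34 of the 37 members. The gene start is here that of the promoter record. For OFD1, CEP164, IFT46, EVC2 and ARL6 it lies inside the annotated gene and not at its first base. RFX factors, which drive ciliary genes in many animals, bind the X-box, a pair of inverted half-sites. Both strands were searched for the half-sites GTTGCC and GTTACC, and 17 of 34 member promoters (50%) held at least 1, compared with 17.7% of all 35116 promoters and 17.5% of the 8501 of genes above background. A full X-box, taken as GTTNCC and GGNAAC with 0 to 3 bases between them, was found in 2 member promoters (5.88%), those of IFT122 and ARL6, compared with 0.740% of all. These letters overlap the half-sites. The Gli consensus GACCACCCA was in 0 of 34 and in 0.236% of all promoters. The CCAAT box, bound by NF-Y, was in 14 of 34 (41.2%) and 34.6% of all. A match describes these letters in this window and is no evidence of binding.

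Half-sites are shown for the 3 members past 2-fold that hold one and, as examples, for 3 other members with a site close to the gene start, with 10 bases on either side, 5′ to 3′ on the gene's strand. Capitals mark the half-site, which reads GGCAAC where it lies on the other strand.
TULP3 (chr12:2890841-2890866): gtggaacgcgGTTGCCaggaggcggg
BBS1 (chr11:66510626-66510651): ggcggggccgGTTGCCaggacgacgc
IFT27 (chr22:36776145-36776170, minus strand): agcttttggcGGCAACcaatcgaggg
MKS1 (chr17:58219274-58219299, minus strand): cagcgtctccGTTGCCaggaaaacag
IFT81 (chr12:110124347-110124372): cctagcaaccGTTGCCaaggagctcg
IFT88 (chr13:20567163-20567188): ttccgcgcttGGCAACggctcggcgt
The X-boxes of the pair of genes that hold a full one follow, with capitals for the whole motif.
IFT122 (chr3:129440202-129440236): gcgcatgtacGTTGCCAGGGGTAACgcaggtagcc
ARL6 (chr3:97764724-97764757): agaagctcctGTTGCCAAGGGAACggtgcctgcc
Of 19 half-sites in 17 genes, 15 lay within 100 bases before the gene start of the promoter record or after it. Those of OFD1, CEP164 and ARL6, among the 15, are counted from a start inside the annotated gene. The site of TULP3 starts 40 bases and that of MKS1 34 bases before the gene start, and the site of IFT27 41 bases before it. Among members above background, the 14 with a half-site had a median of −0.13 with cyclopamine and −0.43 with GANT61, and the 14 without had 0.19 and −0.056, given as a description of 28 genes. Members with a half-site went both ways, since TULP3 and BBS1 were low with both compounds while IFT57 was at 0.30 and 0.23.

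The promoters of the 5 members farthest from DMSO over both compounds are shown to set the low genes (TULP3, BBS1, INPP5E) beside the high ones (IFT20, BBS4). Capitals mark RFX half-sites and CCAAT boxes on either strand.
TULP3 (chr12:2890641-2890940, plus strand): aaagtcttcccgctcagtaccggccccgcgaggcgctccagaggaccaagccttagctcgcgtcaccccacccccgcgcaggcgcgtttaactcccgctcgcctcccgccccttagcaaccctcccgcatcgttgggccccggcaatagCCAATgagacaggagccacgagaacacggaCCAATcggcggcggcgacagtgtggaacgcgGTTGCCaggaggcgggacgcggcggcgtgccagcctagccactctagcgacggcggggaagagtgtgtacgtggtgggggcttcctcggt
BBS1 (chr11:66510385-66510684, plus strand): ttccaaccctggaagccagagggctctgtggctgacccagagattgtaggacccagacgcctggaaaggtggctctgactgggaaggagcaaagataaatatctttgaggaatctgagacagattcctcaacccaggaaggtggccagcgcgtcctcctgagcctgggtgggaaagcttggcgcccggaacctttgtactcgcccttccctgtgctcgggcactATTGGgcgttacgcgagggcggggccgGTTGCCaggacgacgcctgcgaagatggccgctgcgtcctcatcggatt
INPP5E (chr9:136439796-136440095, minus strand): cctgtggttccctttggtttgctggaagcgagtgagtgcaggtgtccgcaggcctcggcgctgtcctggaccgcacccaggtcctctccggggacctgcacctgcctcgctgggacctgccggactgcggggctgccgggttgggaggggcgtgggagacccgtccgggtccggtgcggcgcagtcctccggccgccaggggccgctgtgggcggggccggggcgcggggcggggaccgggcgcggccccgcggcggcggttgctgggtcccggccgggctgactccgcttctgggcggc
IFT20 (chr17:28335423-28335722, minus strand): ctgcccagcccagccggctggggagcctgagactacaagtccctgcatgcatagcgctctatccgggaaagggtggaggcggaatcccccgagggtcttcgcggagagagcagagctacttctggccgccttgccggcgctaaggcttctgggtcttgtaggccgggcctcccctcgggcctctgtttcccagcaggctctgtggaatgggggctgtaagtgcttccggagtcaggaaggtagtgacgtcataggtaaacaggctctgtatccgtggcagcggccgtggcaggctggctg
BBS4 (chr15:72685957-72686256, plus strand): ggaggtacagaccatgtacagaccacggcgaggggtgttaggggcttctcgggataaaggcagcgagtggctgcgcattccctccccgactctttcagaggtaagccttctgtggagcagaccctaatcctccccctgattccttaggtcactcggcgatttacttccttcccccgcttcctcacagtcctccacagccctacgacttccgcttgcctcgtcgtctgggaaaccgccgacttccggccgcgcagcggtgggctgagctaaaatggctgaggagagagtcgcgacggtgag
TULP3 has 1 half-site and 2 CCAAT boxes and BBS1 has 1 of each, and the other 3 promoters hold none of these letters. Their GC shares are 68% for TULP3, 60% for BBS1, 77.3% for INPP5E, 63.7% for IFT20 and 60.3% for BBS4.

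Among the members, GC share of the promoter was inversely correlated with the differences from DMSO by the brightest probes. IFT122, IFT88 and BBS2 enter by those probes, although other probes of these genes lie on the other side of 0. Over the 28 members above background with a promoter, Pearson's r was −0.44 with cyclopamine and −0.30 with GANT61 (Spearman's rho −0.45 and −0.40), and 0.12 for GANT61 minus cyclopamine. Over 8501 genes r was −0.062, −0.047 and 0.0053. These are correlations across genes of the same 3 arrays, which are not independent replicates. In the 2 highest of 5 GC classes of all genes (68.3% to 94%), the 5 members AHI1, ARL3, IFT81, IFT88 and INPP5E were below DMSO with GANT61 by their brightest probes, and 4 of 5 with cyclopamine, where 51.1% and 48.9% of all such genes were. Of these, IFT88 lay at 0.29 and 1.14 with GANT61 by its other probes, and ARL3 was under the limit with GANT61. Scaled on the reference genes, 1 of the 5 stayed below DMSO with either compound, INPP5E. In the middle class, 5 of 7 members were below DMSO with each compound by their brightest probes, against 46.3% of all genes with GANT61 and 47.9% with cyclopamine. Of these 5, BBS2 lay at 0.46 with cyclopamine and 0.80 with GANT61 by its other probe. IFT140 was under the limit with both compounds and MKS1 with GANT61. Scaled on the reference genes, NPHP4 would stand at 0.0010 and −0.0020, IFT140 at 0.24 and −0.064 and TULP3 at −0.61 and −0.55. In the 2 lowest classes (27.7% to 63%), 9 of 16 members were below DMSO with GANT61 and 6 of 16 with cyclopamine, against 47.9% and 44.9% of all genes. The GC share of the probes was not used here, and the part of base composition in these differences was not tested.

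**Figure D5:**
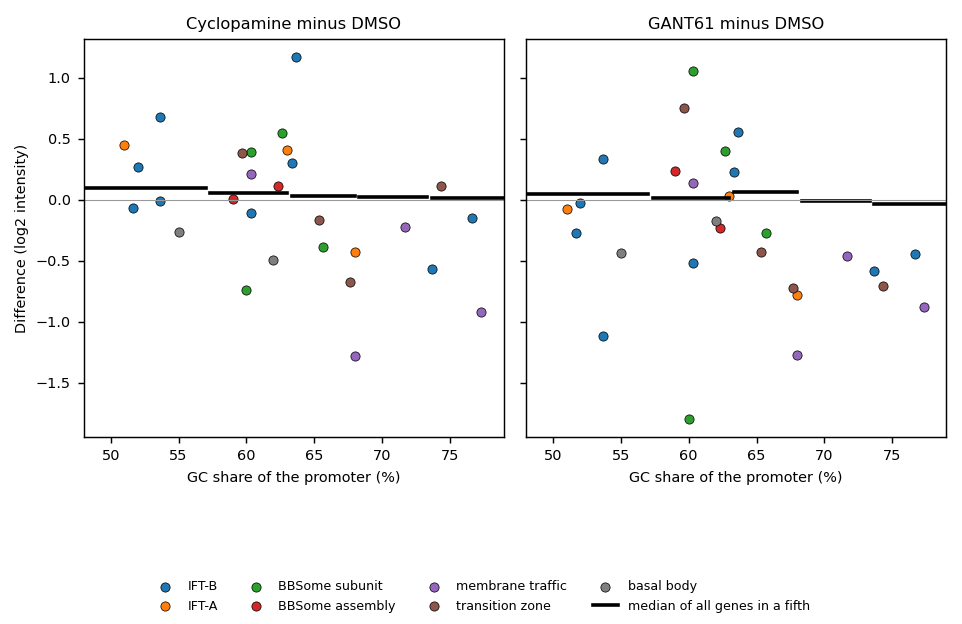
GC share of the promoter (x axis) against the log2 difference from DMSO with cyclopamine (left) and GANT61 (right) for 28 cilium genes above background, colored by role. Black bars are the medians of all genes in 5 classes of GC share. Each point is the brightest probe, before any scaling on reference genes, and the 5 points at the right include IFT88, whose other probes lie above 0, and ARL3, which is under the background limit with GANT61. IFT122 and BBS2 also have a probe on the other side of 0.

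The rest of the ciliary machinery on the array gave no common direction. Among other IFT subunits, 5 of 9 listed had a named probe and 4 were above background. Of these, 0 passed 2-fold with either compound, and the median was 0.10 with cyclopamine and 0.17 with GANT61. Over all genes, 6.31% were 2-fold lower and 4.70% higher with cyclopamine, and 9.64% and 8.16% with GANT61. At such shares, 0 of 4 is no result about the list. WDR19, an IFT-A subunit, had 404, 546 and 537, and CLUAP1, an IFT-B subunit, 15093, 13969 and 17481, so that both were higher with GANT61 than with DMSO. The IFT pattern between the treated arrays was weaker here, with 3 of 4 lower with GANT61 but WDR19 and TRAF3IP1 by only −0.025 and −0.019. Of 9 listed ciliary motors 6 had a named probe and 4 were above background. DYNC2LI1, a light intermediate chain of the return dynein, had 179, 379 and 268 (1.08 and 0.58), the same order of arrays as IFT20. KIF3B, a motor of the outward kinesin, had 603, 387 and 382 (−0.64 and −0.66). Among the other BBS genes, all 6 were above background. Of these, 1 was 2-fold higher with cyclopamine (4.70% of all genes), BBIP1, a small BBSome subunit, which had 86.2, 179 and 131. MKKS, a chaperonin-like BBS protein, had 280, 485 and 476. Of 15 other transition zone genes 13 had a named probe and 11 were above background. CC2D2A had 187, 129 and 88.0 (−0.54 and −1.09) and TMEM216 went up, from 601 to 1001 and 1044. TCTN1, which was named after its values were seen, had 894, 856 and 384, low with GANT61 alone as AHI1 was.

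The proteins that release lipidated cargo at ARL3 belong to the trafficking list, in which 11 of 12 genes had a named probe. Of these, 10 were above background and 2 were 2-fold higher with both compounds (2.45% of all genes). UNC119, a carrier of myristoylated cargo, had 148, 386 and 340, and EHD1, a membrane-shaping ATPase of early ciliogenesis, 553, 1384 and 1871. Another carrier, PDE6D, which brings INPP5E, was named after its values were seen, and had 234, 367 and 212. UNC119B, on the same list, went down, at 134, 114 and 101. Of 10 listed Hh genes that act at the cilium, 9 had a named probe, and GLI2, GLI3 and EFCAB7 were above background. GLI2 had 127.5, 108 and 74.0 and EFCAB7, which anchors EVC and EVC2, 154, 199 and 198. SMO, PTCH1, GLI1, SUFU and KIF7 were not above background. Of 10 listed RFX and multiciliogenesis factors 9 had a named probe and 6 were above background. RFX5, better known as an activator of MHC class II genes, was 2-fold lower with both compounds (4.65% of all genes), at 2052, 797 and 922. RFX1 had 170, 107 and 142. RFX3, a regulator of ciliary genes, passed the limit only with cyclopamine, at 73.6. FOXJ1, the master factor of motile cilia, was not above background. Of 12 listed motile cilium genes 11 had a named probe, and 2 (RSPH4A and TEKT1) passed the limit, each on 1 array and at 65.0.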

How the data were processed

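The authors hybridized RNA of HCC-LM3 cells to Illumina HumanHT-12 v4 BeadChips, 1 array per condition, and deposited a normalized intensity for each of 47319 probes, on a linear scale and scaled to one distribution. The software that did so was not given in the sources used here. Signals before normalization were deposited too, in a table that has 6 per-sample columns whose headings match no label, and it was not used, so normexp was run on the normalized intensities. The authors' DiffScore rests on bead errors not used here, and a 2-fold rule replaced it.

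Of the probes, 30110 have 1 gene symbol in the platform annotation, 8 with several symbols were not used, and 17201 have no name here. Symbols were updated by gene identifier (30071 matched GRCh38.p14). The probe brightest on average over the arrays (log2) stood for its gene. A gene at or below the limit on 1 array has only a bound. The SD between probes was scaled from the median absolute deviation of the 2 brightest probes of a gene, in 5 classes of brightness. The steps were tested on simulated arrays in which changes were planted only in bright genes. That check does not cover genes near the limit.

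The members and the gene lists were chosen with earlier results of these data known. Values on each array are given for members at least 1.5-fold from DMSO or between the compounds and for members whose probes disagree, and from each related list for the 2 genes with the largest mean difference. Other genes named in the text illustrate a role or a list. Alternatives were the mean of all probes, normexp with an offset of 50 and quantile normalization, the background taken off with 16 added back, scaling on reference genes or on the median of all genes, other filters and other folds. Python 3.11.15 (numpy 2.4.6, pandas 2.3.3, scipy 1.17.1, matplotlib 3.10.9) and R 4.3.3 (limma 3.58.1) were used.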

Additional observations from a re-analysis of the deposited data

How the results depend on the processing

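No paired analysis was possible because each condition has 1 array. Scaling on the reference genes changed most: the median of the cilium genes turned from −0.27 to 0.45 with GANT61 and moved from 0.0029 to 0.68 with cyclopamine, the members 2-fold lower went to 0 with cyclopamine, 1 with GANT61 and 0 with both, and those 2-fold higher to 8, 6 and 5. This scaling raises all genes by the same amounts, and no share of all genes on that scale is given. The scaled counts are therefore no result about the cilium genes. At 1.5-fold, 4 members were lower and 2 higher with cyclopamine, 8 and 2 with GANT61, 4 lower with both, and 5 lower and 1 higher with GANT61 than with cyclopamine. At 3-fold only BBS1 with GANT61 remained (1 lower), and the other counts that were above 0 went to 0. With normexp, BBS4 no longer passed 2-fold (0 higher with GANT61), and 1 member (IFT27) was 2-fold lower with GANT61 than with cyclopamine, against 2 with the mean of all probes, where BBS9 was lost. With background subtracted, 2 members were 2-fold lower with cyclopamine and 5 with GANT61, and the median of GANT61 minus cyclopamine was −0.37. No share of all genes is given either for the counts at 3-fold, with normexp, with the mean of all probes or with background subtracted. Above 2 times the most common intensity, the cyclopamine median over 26 members was 0.11. Of 282 values of 12 single members under the alternatives, 253 moved by less than the probe-pair SD and 29 by more. Of these values, 0 past 2-fold changed sign. Another filter cannot alter the difference of a gene, nor can the mean of all probes where a gene has 1 probe. Such values are among the 253 by construction, so the tally is no measure of robustness. Scaling on the reference genes moved 24 values, which are all the differences from DMSO. It left 12, which are the values of GANT61 minus cyclopamine, hardly altered by a like shift of both treated arrays. Background subtraction moved 4 and the mean of all probes 1. The comparison of IFT genes between the treated arrays, its count of 12 of 12 and the alternatives to it were chosen after seeing the data, as was the scaling of the GC classes. Low intensity limits the 6 members without a level and the bounds for IFT140, MKS1, ARL3 and ARL6.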

Other observations

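Genes of the centriole and of cilium disassembly lie next to the listed members and were looked at separately. Of 18 listed centriole and basal body genes, 15 had a named probe and 13 were above background. The median difference of these 13 from DMSO on the log2 scale was 0.27 for cyclopamine and 0.42 for GANT61. CCP110, the cap protein that leaves the mother centriole when TTBK2 acts, gave 380 on the DMSO array, 684 with cyclopamine and 899 with GANT61 (0.85 and 1.24). ODF2, a protein of the centriole appendages, went the other way, at 540, 227 and 241 (−1.25 and −1.16). PCM1, the satellite scaffold that BBS4 binds, had 925, 1851 and 1492, and was named after its values were seen.

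All 8 listed genes of cilium disassembly were above background, with a median of −0.32 with cyclopamine and −0.22 with GANT61, both above 0 when raised by the reference gene shift of 0.67 and 0.72. HDAC6, the deacetylase of ciliary tubulin, had 351, 222 and 119 (−0.66 and −1.56), and AURKA, the mitotic kinase that activates it in disassembly, had 1696, 913 and 981 (−0.89 and −0.79). With 1 array per condition these are values of 3 arrays and no test was made.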
